A study of Mus musculus with 18 samples.

Results

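The 7 genes described here (Adgrg1, Emp1, Oaf, Nptxr, Ociad2, Gpr142 and Gsg1) code for membrane or secreted proteins whose nascent RNA was several-fold lower in Med24 knockout (KO) than in rescued embryonic stem cells after ERK signalling had been switched on. They were chosen by their measured values in KO and rescued libraries at 2 h or 8 h of 4-hydroxytamoxifen (4OHT), so those differences are given as descriptions with no test. They are 7 of the 25897 gene symbols in the deposited count table, and all 7 were among the 14128 genes that passed the filter on low counts. The rule named no size, and the larger of a gene's 2 differences lay between 2.55-fold lower (Gsg1, at 2 h) and 12-fold lower (Oaf, at 2 h).

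The cells were E14tg2a mouse embryonic stem cells of 129SV background in which Med24 had been knocked out and a FLAG-tagged Med24 cDNA under doxycycline control put in its place. KO cells were kept for several passages without doxycycline, and rescued cells (labelled WT) with 500 nM of it, so the rescued cells carried the same knockout and drew their Med24 from the transgene. Any effect of doxycycline itself cannot be told apart from that of Med24. Every group also carried cRAF-ErT2, a RAF kinase fused to an estrogen receptor domain that 4OHT activates. Cells grew in serum with LIF and the GSK3 inhibitor Chir99021 (2 µM), which PD173074 (250 nM), an inhibitor of FGF receptors, replaced 24 h before treatment. KO cells and rescued cells were each sampled before 4OHT (0 h) and after 2 h and 8 h of 250 nM 4OHT, as clones A, B and C, which gave 6 groups of 3 libraries. RNA made during the last 15 min was labelled with 5 mM ethynyl uridine, captured and sequenced.

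Med24 is a subunit of the tail of Mediator, the large complex that carries signals from transcription factors at enhancers to RNA polymerase II at promoters. ERK phosphorylates ETS-family and other factors and induces the AP-1 and EGR factors, and in many cell types the genes that follow code for growth factors, proteases and receptors at the cell surface. In embryonic stem cells ERK signalling downstream of FGF receptors moves cells away from naive pluripotency and towards lineage choice. Among the 7 genes, Adgrg1 (also known as GPR56) codes for an adhesion G protein-coupled receptor that signals through G12/13 proteins to RhoA, and Gpr142 for a receptor that senses aromatic amino acids in pancreatic islets. Emp1 codes for a tetraspan membrane protein of the PMP22 family, Oaf for a secreted protein named after the Drosophila gene out at first, and Nptxr for a membrane-anchored neuronal pentraxin that gathers AMPA receptors at synapses. Ociad2 and Gsg1 sit less firmly under the heading of cell surface, since the OCIA-domain protein Ociad2 is known from endosomes and mitochondria and Gsg1, a germ cell protein of claudin-like build, from the endoplasmic reticulum.

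Library totals ran from 6691177 counts (KO, 8 h, clone C) to 14541145 counts (rescued, 8 h, clone A). In terms of CPM (counts scaled to library size), the 3 counts that an observed 0 may hide came to between 0.196 and 0.628. Med24 itself was lower in every KO library, with log2 differences of -3.81 ± 0.081 at 0 h, -5.14 ± 0.083 at 2 h and -3.35 ± 0.084 at 8 h (SE, n = 3 per group). In rescued cells Med24 averaged 548 CPM at 0 h, 1633 CPM at 2 h and 404 CPM at 8 h. In KO cells it averaged 38.9, 46.5 and 39.2 CPM. The part of the changing rescued level of Med24 in the differences of the 7 genes was not tested. A group of 13 abundant genes held 34.2% of counts in KO clone A at 2 h, 36.4% in KO clone B at 8 h and 43.9% in KO clone C at 8 h, against 17.7% to 24.0% in the other 15 libraries. Differences at 2 h and 8 h are also given without these 3 libraries for the 7 genes and for the leading genes of each list. With them left out the KO group at 8 h is clone A alone, assumed to vary as the other groups do. All 10 embryonic stem cell markers examined, Pou5f1, Sox2 and Nanog among them, averaged at least 1 CPM in every group. Their summed level at 0 h was 2289 to 2318 CPM in KO and 2513 to 2543 CPM in rescued libraries. At 2 h it was 2014 to 2190 CPM in KO and 1728 to 1760 CPM in rescued libraries. At 8 h it was 2087 to 2414 CPM in KO and 1866 to 1957 CPM in rescued libraries. At 0 h 3 of the 10 were called higher and 3 lower in KO, beside 6.83% and 9.64% of all tested genes. At 2 h and at 8 h 6 were called higher and 0 lower, beside 10.8% and 14.5% of all tested genes called higher. By contrast 5 to 7 of 8 fibroblast markers averaged under 1 CPM, depending on the group. Values below are CPM scaled by the trimmed mean of M values, which compare 1 gene between libraries and not genes of different length. The labels name no spike-in, so each difference is relative to the rest of the transcripts sequenced. In such bulk libraries fewer cells that make a transcript and less of it made per cell cannot be told apart.

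The rule that chose the 7 genes did not use the 0 h libraries, but these bear the same clone labels as the libraries it used. A gap between KO and rescued cells that stood at all times would enter both, so the 0 h calls are no independent test. Adgrg1, Emp1 and Oaf were lower in KO than in rescued cells at 0 h, while Nptxr, Ociad2, Gpr142 and Gsg1 were not called either way. Promoter windows of the GRCm38.p6 assembly, 250 bases before to 50 after a start, came from RefSeq for 6 of the 7 genes, 10 windows in all. A window of each of the 3 genes lower at 0 h is shown because these genes differed without the signal as well as with it. Capitals mark every match to TGANTCA, the AP-1 motif (both strands searched).
Emp1 (chr6:135362681-135362980, plus strand): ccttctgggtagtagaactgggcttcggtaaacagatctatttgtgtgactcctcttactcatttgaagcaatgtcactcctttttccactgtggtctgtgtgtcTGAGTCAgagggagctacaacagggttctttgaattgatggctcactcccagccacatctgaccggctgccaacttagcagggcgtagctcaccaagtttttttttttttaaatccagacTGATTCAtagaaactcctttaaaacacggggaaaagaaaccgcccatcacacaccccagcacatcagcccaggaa
Adgrg1 (chr8:94984149-94984448, plus strand): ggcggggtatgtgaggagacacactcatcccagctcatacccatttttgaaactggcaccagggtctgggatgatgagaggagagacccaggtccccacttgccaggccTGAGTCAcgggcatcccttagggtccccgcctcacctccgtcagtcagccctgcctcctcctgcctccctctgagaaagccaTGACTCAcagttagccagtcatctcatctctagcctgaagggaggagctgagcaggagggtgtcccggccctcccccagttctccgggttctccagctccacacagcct
Oaf (chr9:43239767-43240066, minus strand): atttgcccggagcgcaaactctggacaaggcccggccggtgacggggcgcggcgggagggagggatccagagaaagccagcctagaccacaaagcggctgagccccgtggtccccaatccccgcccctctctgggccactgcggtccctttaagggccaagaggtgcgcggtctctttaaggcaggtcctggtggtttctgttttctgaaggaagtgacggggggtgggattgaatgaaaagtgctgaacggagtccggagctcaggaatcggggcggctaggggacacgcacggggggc

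The Emp1 window holds TGAGTCA at -145 and TGATTCA at -25, and the window of an inner start of Adgrg1 holds TGAGTCA at -141 and TGACTCA at -59, counted from the start to the motif's first base. The Oaf window holds none. Emp1 and Adgrg1 each had another window, which held none and is not shown, so for these genes the windows shown are those with the motif. In all, the AP-1 motif was in 2 of the 10 windows of the 7 genes, against 7.81% of 32851 RefSeq windows of the same length. The ETS motif CCGGAA (14.9% of all windows), the EGR motif GCGNGGGCG (5.55%) and the CArG box of SRF (1.63%) were in none of the 10, each searched on both strands.

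At 0 h 3 of the 7 genes were lower in KO cells and 0 higher by edgeR's quasi-likelihood test (Benjamini-Hochberg adjusted p under 0.05). Of all tested genes 9.64% were lower and 6.83% higher. The same 3 were the ones whose KO and rescued libraries did not overlap at 0 h, with KO below, as held for 17.1% of all tested genes. In the order of clones A, B and C, used throughout, Adgrg1 was at 23.9, 21.6 and 21.6 CPM in KO cells, against 37.4, 31.2 and 35.1 CPM in rescued cells. It was 1.55-fold lower in KO cells (log2 difference -0.63 ± 0.093, edgeR adjusted p = 1.26e-05). Emp1 was at 17.6, 14.3 and 14.3 CPM in KO clones and at 22.0, 25.5 and 23.0 CPM in rescued clones, which is 1.52-fold lower (-0.61 ± 0.10, edgeR adjusted p = 0.000101). Every KO library of both genes lay below every rescued one. Oaf was at 1.15, 1.51 and 1.09 CPM in KO clones and at 4.00, 3.20 and 2.64 CPM in rescued clones, 2.57-fold lower (-1.36 ± 0.28, edgeR adjusted p = 0.00116). These 3 calls stood in every alternative run, including each fit that left out a library.

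For the other 4 genes the 0 h libraries held few counts and the differences had wide intervals. Ociad2 was at 2.87, 4.54 and 2.92 CPM in KO clones and at 3.25, 4.17 and 4.08 CPM in rescued clones, a log2 difference of -0.13 with a 95% interval (from its SE) of -0.61 to 0.35 (edgeR adjusted p = 0.775). Nptxr had 11 counts over the 3 KO libraries and 13 over the 3 rescued ones (log2 difference -0.42, interval -1.57 to 0.73, edgeR adjusted p = 0.689). Gpr142 had 9 counts in KO and 5 in rescued libraries (0.62, interval -0.73 to 1.97, edgeR adjusted p = 0.629), and Gsg1 had 10 and 4 (1.07, interval -0.41 to 2.55, edgeR adjusted p = 0.378). The groups overlapped for all 4 of these genes.

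**Figure D1:**
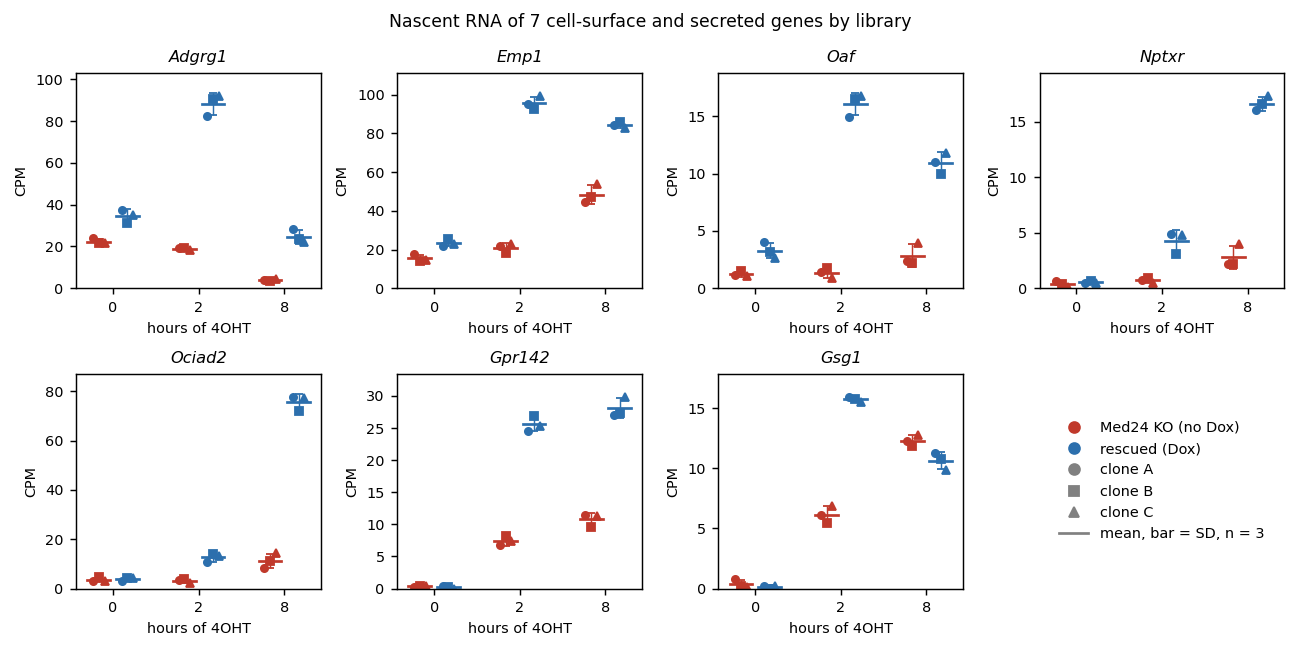
Nascent RNA of the 7 genes in CPM (vertical axis, each from 0) at 0, 2 and 8 h of 4OHT, with a point for each clone, KO in red left of rescued in blue, and lines and bars for mean and SD (n = 3). At 2 h every KO point lies below every rescued point in all 7 panels, and at 8 h this holds in all but Gsg1, where the KO points (11.8 to 12.8 CPM) lie above the rescued ones (9.85 to 11.2 CPM).

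After 2 h of 4OHT all 7 genes were higher in rescued cells than before it, while the KO change over 0 h was between -0.25 (Adgrg1) and 0.76 (Nptxr) log2 units for 5 of them and larger for Gsg1 (4.00) and Gpr142 (4.43). At 2 h the KO libraries of 7 of 7 lay entirely below the rescued ones, beside 19.2% of all tested genes. The genes were chosen on these values, so nothing is read from that count. Across all genes at 2 h, 12.9% were called lower and 10.8% higher in KO cells. At 8 h, 6 of 7 had KO libraries entirely below the rescued ones, beside 22.1% of all tested genes, and 17.1% of all genes were called lower and 14.5% higher.

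Adgrg1, the adhesion receptor, was raised briefly in rescued cells. It was at 19.1, 19.1 and 18.4 CPM in KO clones at 2 h, against 82.3, 90.4 and 91.9 CPM in rescued clones, a 4.68-fold difference (log2 -2.23 ± 0.087, SE, and -2.23 without KO clone A at 2 h and the other 2 libraries rich in abundant genes). At 8 h it was at 4.13, 3.49 and 4.19 CPM in KO clones, against 28.2, 23.6 and 22.0 CPM in rescued clones (6.31-fold lower, log2 -2.66 ± 0.14, and -2.60 without these 3 libraries). In rescued cells the log2 change over 0 h was 1.35 ± 0.08 at 2 h and -0.47 ± 0.09 at 8 h, so that the high level at 2 h had passed by 8 h. In KO cells the log2 change over 0 h was -0.25 ± 0.10 at 2 h and -2.49 ± 0.15 at 8 h, and the KO libraries at 8 h lay below all libraries of the other 5 groups. Adgrg1 was the only one of the 7 whose level at 8 h lay below 0 h in KO and in rescued cells alike. By mean level the order from the top was rescued at 2 h, rescued at 0 h, rescued at 8 h, KO at 0 h, KO at 2 h and KO at 8 h. Of the neighbours in this order, rescued at 8 h and KO at 0 h overlapped.

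Emp1, the tetraspan protein, was low in KO cells at 2 h and part of the way up at 8 h. At 2 h it was at 22.0, 18.2 and 22.7 CPM in KO clones, against 95.1, 92.6 and 99.1 CPM in rescued clones (4.57-fold lower, log2 -2.19 ± 0.082, and -2.22 without the 3 libraries). At 8 h it was at 44.4, 47.1 and 53.6 CPM in KO clones, against 84.3, 85.8 and 82.7 CPM in rescued clones (1.76-fold lower, log2 -0.82 ± 0.074, and -0.92 without the 3 libraries). The groups did not overlap at either time, and the gap was narrower at 8 h. The rise over 0 h in KO clones was 6.02%, 5.73% and 10.9% of that in the same rescued clone at 2 h, and 43.1%, 54.2% and 65.9% at 8 h. The difference between the 2 responses over 0 h was -1.59 ± 0.13 log2 units at 2 h and -0.21 ± 0.13 at 8 h. By mean level the order from the top was rescued at 2 h, rescued at 8 h, KO at 8 h, rescued at 0 h, KO at 2 h and KO at 0 h, and in this order rescued at 0 h and KO at 2 h overlapped.

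Oaf, the secreted protein, had the largest difference of the 7 at 2 h. It was at 1.37, 1.77 and 0.876 CPM in KO clones, against 14.9, 16.5 and 16.7 CPM in rescued clones (12-fold lower, log2 -3.59 ± 0.21, and -3.60 without the 3 libraries). The KO level at 2 h overlapped the KO level at 0 h, with a log2 change of 0.07 ± 0.35, while rescued cells changed by 2.29 ± 0.17. At 8 h Oaf was at 2.42, 2.16 and 3.98 CPM in KO clones, against 11.0, 9.98 and 11.8 CPM in rescued clones (4.02-fold lower, log2 -2.01 ± 0.20, and -2.17 without the 3 libraries). The log2 change of Oaf over 0 h at 8 h was 1.09 ± 0.31 in KO and 1.74 ± 0.18 in rescued cells. The difference between these responses was -0.64 ± 0.37, with a 95% interval (-1.38 to 0.09) that held 0. From the top the order of its means was rescued at 2 h, rescued at 8 h, rescued at 0 h, KO at 8 h, KO at 2 h and KO at 0 h, where KO at 8 h overlapped rescued at 0 h.

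Nptxr and Ociad2 were the late genes of the set, with rescued levels that went on climbing between 2 h and 8 h. Nptxr, the pentraxin receptor, was at 0.763, 0.944 and 0.438 CPM in KO clones at 2 h, against 4.90, 3.12 and 4.77 CPM in rescued clones (5.98-fold lower, log2 -2.58 ± 0.33, and -2.62 without the 3 libraries). At 8 h it was at 2.21, 2.16 and 3.98 CPM in KO clones, against 16.0, 16.6 and 17.3 CPM in rescued clones (6.28-fold lower, log2 -2.65 ± 0.20, and -2.89 without the 3 libraries). Ociad2 followed a like course, at 3.66, 3.78 and 2.30 CPM in KO clones at 2 h, against 10.7, 14.1 and 13.3 CPM in rescued clones (3.97-fold lower, log2 -1.99 ± 0.20, and -2.07 without the 3 libraries). After 8 h Ociad2 was at 8.46, 11.1 and 14.2 CPM in KO clones, against 77.8, 72.2 and 77.3 CPM in rescued clones (7.08-fold lower, log2 -2.82 ± 0.12, and -3.16 without the 3 libraries). For both genes the means ran, from the top, from rescued at 8 h over rescued at 2 h to KO at 8 h, and below these came KO at 2 h and both 0 h groups, which overlapped each other. The KO libraries at 8 h overlapped the rescued libraries at 2 h. The rise over 0 h in KO clones at 8 h was 9.85% to 23.0% of that in the same rescued clone for Nptxr and 7.49% to 15.5% for Ociad2. The log2 change between 2 h and 8 h was 1.88 ± 0.38 in KO and 1.95 ± 0.17 in rescued cells for Nptxr, and 1.74 ± 0.21 in KO and 2.58 ± 0.11 in rescued cells for Ociad2.

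Gpr142 and Gsg1 were close to silent at 0 h and were well above that level at 2 h in KO cells too. Gpr142, the amino acid receptor, was at 6.71, 8.26 and 7.44 CPM in KO clones at 2 h, against 24.6, 26.9 and 25.4 CPM in rescued clones (3.40-fold lower, log2 -1.77 ± 0.12, and -1.70 without the 3 libraries). After 8 h the level was 11.5, 9.64 and 11.3 CPM in KO clones, against 27.0, 27.4 and 29.9 CPM in rescued clones (2.57-fold lower, log2 -1.36 ± 0.12, and -1.28 without the 3 libraries). Its rise over 0 h in KO clones was 26.7% to 29.5% of that in the same rescued clone at 2 h and 34.0% to 42.3% at 8 h. Gsg1, the germ cell protein, was at 6.10, 5.43 and 6.90 CPM in KO clones at 2 h, against 15.9, 15.7 and 15.5 CPM in rescued clones (2.55-fold lower, log2 -1.35 ± 0.15, and -1.34 without the 3 libraries). At 8 h the order was turned round, with 12.3, 11.8 and 12.8 CPM in KO clones, against 11.2, 10.7 and 9.85 CPM in rescued clones. That is a log2 difference of 0.20 ± 0.14 (0.20 without the 3 libraries), and with libraries scaled by total counts alone it was -0.05, so its direction rests on the scaling. Gsg1 was higher at 8 h than at 2 h in KO cells (log2 change 0.99 ± 0.16) and lower in rescued cells (-0.56 ± 0.13). The log2 change over 0 h at 2 h was 4.43 ± 0.29 in KO and 6.82 ± 0.25 in rescued cells for Gpr142, and 4.00 ± 0.32 in KO and 6.41 ± 0.31 in rescued cells for Gsg1. These changes rest on 4 to 10 counts per group at 0 h. Without KO clone A at 0 h, which held 7 of the 10 counts of Gsg1, the KO change of Gsg1 was 5.10 at 2 h and 6.09 at 8 h, and its KO change exceeded the rescued one at 8 h by 0.24. Both genes had their lowest levels in the 2 groups at 0 h, which overlapped, and no other groups next to each other in level overlapped.

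**Figure D2:**
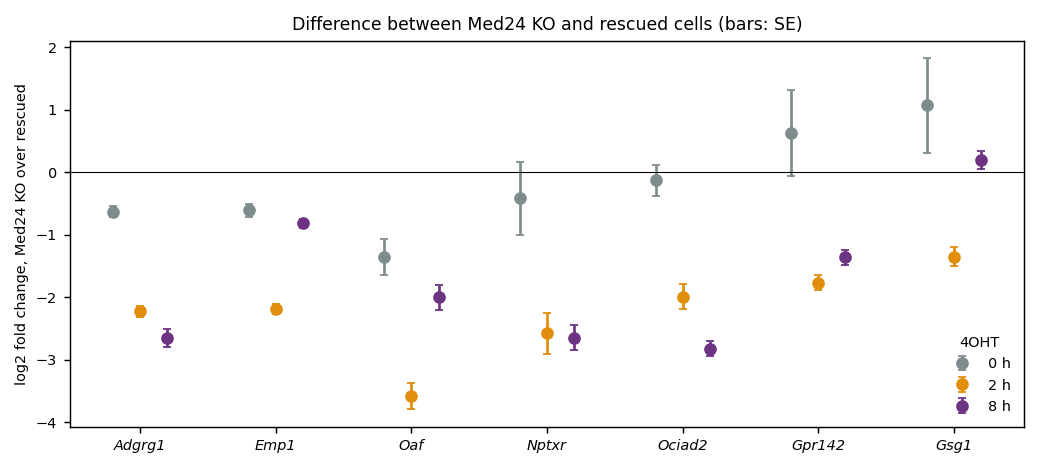
Log2 difference of nascent RNA, KO over rescued (vertical axis), for each of the 7 genes (horizontal axis) at 0 h (grey), 2 h (orange) and 8 h (purple), with bars for SE. The 2 h points lie between -3.59 (Oaf) and -1.35 (Gsg1), while at 8 h the points spread from -2.82 (Ociad2) to 0.20 (Gsg1).

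The differences between KO and rescued cells ranged more widely at 8 h than at 2 h. In Emp1, Oaf, Gpr142 and Gsg1 the KO level was closer to the rescued one at 8 h than at 2 h, and in Adgrg1, Nptxr and Ociad2 the log2 difference was larger at 8 h, in Nptxr by less than its SE. In 6 of the 7 genes, all but Gpr142, the highest of the KO libraries at 8 h was clone C, the library with the largest share of abundant genes. Over the 18 libraries the log2 CPM of Nptxr and Ociad2 had a Pearson r of 0.96, those of Gpr142 and Gsg1 0.96, and those of Emp1 and Oaf 0.91, whereas Adgrg1 had an r between -0.12 and 0.51 with the other 6. These correlations describe 18 libraries that share treatments and clones.

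**Figure D3:**
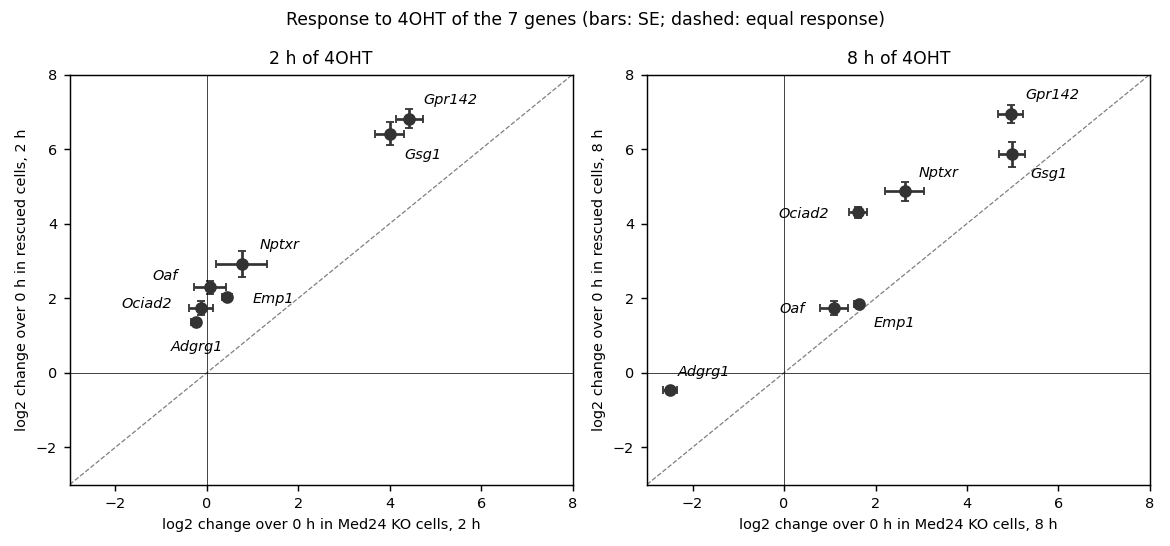
Log2 change of the 7 genes over 0 h in KO cells (horizontal axis) against that in rescued cells (vertical axis) at 2 h (left) and 8 h (right), with bars for SE and a dashed line where the responses are equal. All 7 points lie above the line at both times, that of Gsg1 at 8 h only with KO clone A at 0 h included. At 8 h the 95% interval of the difference between responses held 0 for Emp1 (-0.46 to 0.04), Oaf (-1.38 to 0.09) and Gsg1 (-2.37 to 0.63). At 2 h the KO changes of Adgrg1, Ociad2, Oaf, Emp1 and Nptxr lie between -0.25 and 0.76.

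Most tested relatives of the 7 genes were called neither way. Of 84 listed relatives and partners 49 passed the filter, and 14 were lower and 3 higher in KO cells at 2 h, with a median log2 difference of -0.03, against 0.00 over all genes tested. At 8 h 16 were lower and 3 higher, with a median of -0.20, and the 3 were 0 with total-count scaling and 1 with DESeq2 or without the 3 libraries. At 0 h 5 were lower and 3 higher. Beside these counts, 12.9% of all tested genes were lower and 10.8% higher at 2 h. At 8 h the shares of all genes were 17.1% and 14.5%, and at 0 h 9.64% and 6.83%.

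Among the other adhesion G protein-coupled receptors 20 of 29 were tested, with 5 lower and 0 higher in KO cells at 2 h and 5 lower and 2 higher at 8 h (medians -0.03 and -0.08). Adgrb1, a receptor known from the engulfment of dying cells, averaged 7.14 ± 1.1 CPM in KO and 16.3 ± 1.4 CPM in rescued cells at 2 h (SD, n = 3 each, log2 difference -1.18, edgeR adjusted p = 3.69e-07). Adgre5 (CD97) averaged 58.9 ± 1.2 CPM in KO and 103 ± 2.3 CPM in rescued cells (-0.80, edgeR adjusted p = 7.43e-11). Adgrv1 and the cadherin-like Celsr1 were also lower at 2 h, by log2 differences of -0.58 and -0.43. At 8 h Adgrb1 (-1.31), Adgrd1 (-0.86), Adgrl2 (-0.52) and Adgrv1 (-0.38) were lower. Adgrg5, a near relative of Adgrg1 that lies 31.5 kb from it, averaged 5.40 CPM in KO and 6.91 CPM in rescued cells at 0 h and at most 0.293 CPM in each later group. Among 10 tested genes listed as partners of Adgrg1, not all of them in G12/13 signalling, 3 were lower at 2 h. At 8 h 4 were lower and 1 higher (medians -0.12 at 2 h and -0.16 at 8 h). The tetraspanin Cd9 (-0.36 at 2 h) and the guanine nucleotide exchange factor Arhgef1 (-0.45 at 2 h and -0.29 at 8 h) were lower, as was Arhgef12 at 8 h (-0.37). Arhgef12 was also called at 2 h (-0.21) and Cd9 at 8 h (-0.16), but the 2 h call of Arhgef12 was lost with total-count scaling (adjusted p = 0.11), and that of Cd9 without KO clone A at 8 h (0.107) or rescued clone C at 8 h (0.109). Rhoa was called higher at 8 h (0.22), a call lost without the 3 libraries (0.16, adjusted p = 0.0704), and total-count scaling turned it to -0.050. Without the 3 libraries the 2 h difference was -1.10 for Adgrb1 and -0.78 for Adgre5, and that at 8 h was -1.37 for Adgrb1. Gna12 was not called at 2 h with all libraries (-0.19, edgeR adjusted p = 0.0966).

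Of the PMP22, EMP and claudin relatives of Emp1 and Gsg1, 14 of 31 were tested, with 5 lower and 2 higher in KO cells at 2 h and 6 lower and 0 higher at 8 h (medians -0.11 and -0.42). Emp3, of the same family as Emp1, averaged 2.71 ± 0.95 CPM in KO and 10.8 ± 3.0 CPM in rescued cells at 2 h (log2 difference -2.03, edgeR adjusted p = 4.48e-07). Perp, a desmosome-associated p53 target, averaged 13.4 ± 2.8 CPM in KO and 39.4 ± 4.0 CPM in rescued cells (-1.57, edgeR adjusted p = 8.09e-11). Cldn15 (-0.94) and Cldn4 (-0.60), both tight junction claudins, were lower as well at 2 h. At 8 h Cldn15 (-0.92), Perp (-0.75), Cldn6 (-0.62) and Cldn12 (-0.42) were lower. Without the 3 libraries the difference at 2 h was -2.21 for Emp3 and -1.72 for Perp, and at 8 h -1.03 for Cldn15 and -1.10 for Perp. Of the pentraxins and AMPA receptor subunits 4 of 10 were tested, with 1 lower and 1 higher at 2 h and 1 lower at 8 h (medians 0.06 and -0.11). Nptx1, a secreted partner of Nptxr, was higher in KO cells at 2 h, at 122 ± 25 CPM in KO and 59.0 ± 5.7 CPM in rescued cells (1.05, edgeR adjusted p = 1.06e-09, and 1.21 without the 3 libraries), while Nptx2, the other secreted pentraxin, was lower (-0.41 at 2 h, edgeR adjusted p = 0.000429). At 8 h Nptx2 was still lower (-0.33), a call lost without KO clone A at 8 h (adjusted p = 0.0554), and the AMPA receptor genes Gria3 (0.00 at 2 h and 0.36 at 8 h) and Gria4 (0.12 and -0.07) were called at neither time. Ociad1, the paralogue that lies 8.13 kb from Ociad2, averaged 155 ± 2.8 CPM in KO and 156 ± 3.5 CPM in rescued cells at 2 h and 138 ± 8.6 CPM in KO and 139 ± 4.0 CPM in rescued cells at 8 h (log2 differences -0.01 at both times, edgeR adjusted p = 0.918 and 0.913).

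Genes known as ERK-induced surface or secreted products in other cells were set beside the 7. Of 38 listed 26 were tested, and at 2 h 13 were lower and 3 higher in KO cells, with a median log2 difference of -0.57, against 0.00 over all genes. The 3 were 1 with total-count scaling and 5 with no filter on low counts. At 8 h 16 were lower and 6 higher, with a median of -0.44. At 0 h 2 were lower and 6 higher. Of all genes 12.9% were lower and 10.8% higher at 2 h, 17.1% lower and 14.5% higher at 8 h, and 9.64% lower and 6.83% higher at 0 h. Hbegf, a growth factor shed from the cell surface that binds the EGF receptor, averaged 96.4 ± 7.0 CPM in KO and 431 ± 9.6 CPM in rescued cells at 2 h (log2 difference -2.16, edgeR adjusted p = 4.50e-22). Plaur, the urokinase receptor, averaged 328 ± 37 CPM in KO and 769 ± 27 CPM in rescued cells (-1.23, edgeR adjusted p = 1.90e-15). Its ligand Plau was lower at 8 h, at 1.91 ± 0.35 CPM in KO and 11.0 ± 0.37 CPM in rescued cells (-2.57, edgeR adjusted p = 1.61e-10). The ephrin receptor gene Epha2 (-0.83) and the integrin gene Itga5 (-0.95) were lower at 2 h, and Hbegf (-1.27) and Plaur (-0.96) were lower at 8 h too. Without the 3 libraries the 2 h difference was -2.09 for Hbegf and -1.14 for Plaur, and the 8 h difference was -1.16 for Hbegf, -0.93 for Plaur and -2.75 for Plau.

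The change over 0 h itself differed between KO and rescued cells for part of these lists. At 2 h it was more negative in KO for 12 of the 26 ERK-induced genes and more positive for 0, and for 10 and 4 of the 49 relatives, beside 6.6% and 6.58% of all genes. At 8 h the change was more negative for 10 and more positive for 4 of the ERK-induced genes, and for 9 and 2 of the relatives, beside 8.88% and 7.88% of all genes. Among the 9 were 4 adhesion receptors and 4 PMP22, EMP and claudin genes.

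Marker genes of other cell types moved between the groups as well, and their part in the values of the 7 genes was not tested. The summed level of 6 trophectoderm markers, Cdx2, Eomes and Gata3 among them, was 120 to 144 CPM in KO and 363 to 381 CPM in rescued libraries at 2 h. At 8 h it was 448 to 499 CPM in KO and 610 to 665 CPM in rescued libraries, and 3 of 5 tested were lower in KO at each of these times. At 0 h it was 178 to 188 CPM in KO and 160 to 174 CPM in rescued libraries, and Elf5 averaged under 1 CPM in every group. Cdx2 averaged under 1 CPM in KO and rescued cells at 0 h and in KO cells at 2 h. The summed level of 6 primitive endoderm markers was 55.7 to 68.3 CPM in KO and 31.5 to 31.8 CPM in rescued libraries at 0 h (4 of 5 tested higher in KO). At 2 h it was 33.6 to 44.4 CPM in KO and 16.0 to 26.1 CPM in rescued libraries (4 of 5 higher), and at 8 h 22.9 to 29.3 CPM in KO and 8.81 to 9.73 CPM in rescued libraries (5 of 5 higher). The 4 neural markers summed to 32.2 to 38.9 CPM in KO and 55.1 to 64.5 CPM in rescued libraries at 2 h. They summed to 23.0 to 28.9 CPM in KO and 38.4 to 40.0 CPM in rescued libraries at 8 h. At each of these times 2 of 3 tested were lower in KO, and Tubb3 was under 1 CPM throughout. Sox7, a primitive endoderm marker, was also under 1 CPM in every group. Beside the calls of these markers, 9.64% of all tested genes were lower and 6.83% higher in KO at 0 h. At 2 h the shares were 12.9% and 10.8%, and at 8 h 17.1% and 14.5%.

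The genes beside the 7 on the chromosomes were tested in the same fit. Positions are those of GRCm38 in GENCODE release M21. Gpr142 lies on chromosome 11 at 114798924 to 114806745 on the plus strand, and its lower-coordinate neighbours moved with it. Btbd17, a BTB-domain gene 2.98 kb away, was at 7.63, 7.67 and 6.35 CPM in KO clones at 2 h, against 26.8, 32.0 and 25.9 CPM in rescued clones (log2 difference -1.97, edgeR adjusted p = 3.95e-14). Its difference at 8 h was -1.20. Kif19a, a kinesin gene of cilia 8.19 kb away, was at 3.36, 1.53 and 3.06 CPM in KO clones at 2 h, against 11.3, 11.7 and 11.2 CPM in rescued clones (-2.12, edgeR adjusted p = 5.17e-10). Its difference at 8 h was -1.84. Both were close to silent at 0 h, with at most 5 counts in any library, as Gpr142 was. On the other side Gprc5c, an orphan receptor gene 44.4 kb away, was higher in KO cells at 0 h (0.86, edgeR adjusted p = 4.03e-05) and lower at 2 h (-0.87) and 8 h (-1.13). Without the 3 libraries the 2 h and 8 h differences were -2.28 and -1.61 for Kif19a and -0.97 and -1.27 for Gprc5c, and that of Btbd17 was -1.21 at 8 h.

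Gsg1 (chromosome 6, 135237326 to 135254351, minus strand) and Emp1 (135362545 to 135383173, plus strand) lie 108 kb apart on the same chromosome. Gprc5a, a retinoic acid-inducible receptor gene 153 kb from Gsg1 on the far side from Emp1, was at 73.7, 76.1 and 85.9 CPM in KO clones at 2 h, against 295, 307 and 337 CPM in rescued clones (log2 difference -1.99, edgeR adjusted p = 3.52e-20). At 8 h its difference was -0.91. Hebp1, which lies between Gprc5a and Gsg1, was called at neither time (0.06 at 2 h and 0.24 at 8 h). Fam234b, which overlaps Gsg1 over 7630 bases on the opposite strand, was lower in KO at 2 h (-0.48, edgeR adjusted p = 0.00505) and not called at 8 h (-0.09). Since it is not given whether reads were counted by strand, reads of Gsg1 and Fam234b cannot be told apart where they overlap. Nptxr (chromosome 15, 79786351 to 79804766, minus strand) is overlapped over 15092 bases by Npcd on the same strand, and the values of both genes are uncertain to that extent. Npcd may hold reads of Nptxr, which was chosen on these libraries, so the test of Npcd is no independent one. Npcd was at 4.53, 6.65 and 3.77 CPM in KO clones at 8 h, against 12.1, 13.3 and 13.8 CPM in rescued clones (-1.38, edgeR adjusted p = 1.39e-07). Apobec3, an antiviral deaminase gene 86.9 kb from Nptxr, was lower at 8 h too (-0.75). Without the 3 libraries Gprc5a differed by -1.94 at 2 h and -1.09 at 8 h, and at 8 h Npcd differed by -1.51 and Apobec3 by -0.87.

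Oaf (chromosome 9, 43221235 to 43239911, minus strand) lies 10.9 kb from Pou2f3, which was higher in KO at 0 h (0.77, edgeR adjusted p = 0.000362) and not called later. Adgrg1 lies on chromosome 8 at 94974751 to 95014217 (plus strand) and Ociad2 on chromosome 5 at 73322199 to 73341028 (minus strand). Beside Adgrg1, Ccdc102a (56.7 kb away) was lower in KO cells at 0 h (-0.32, edgeR adjusted p = 0.0221) and 8 h (-0.61, 0.000328), and not called at 2 h (-0.19). Beside Ociad2, Fryl was lower in KO cells at 0 h (-0.23, edgeR adjusted p = 0.00211), 2 h (-0.20, 0.00291) and 8 h (-0.58, 1.42e-10). With total-count scaling the calls of Fryl at 0 h (adjusted p = 0.547) and 2 h (0.15) and that of Ccdc102a at 0 h (0.361) were lost, and the last was also lost without KO clone B (0.0659), KO clone C (0.0937), rescued clone A (0.0965) or rescued clone C (0.0627) at 0 h. Over all 21 tested neighbours 2 were lower and 3 higher in KO at 0 h (median log2 difference 0.06). At 2 h 8 were lower and 1 higher (-0.19), and at 8 h 10 were lower and 0 higher (-0.37). The 8 include Fam234b and the 10 include Npcd, which may hold reads of Gsg1 and Nptxr. The shares of all genes are those given above.

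**Figure D4:**
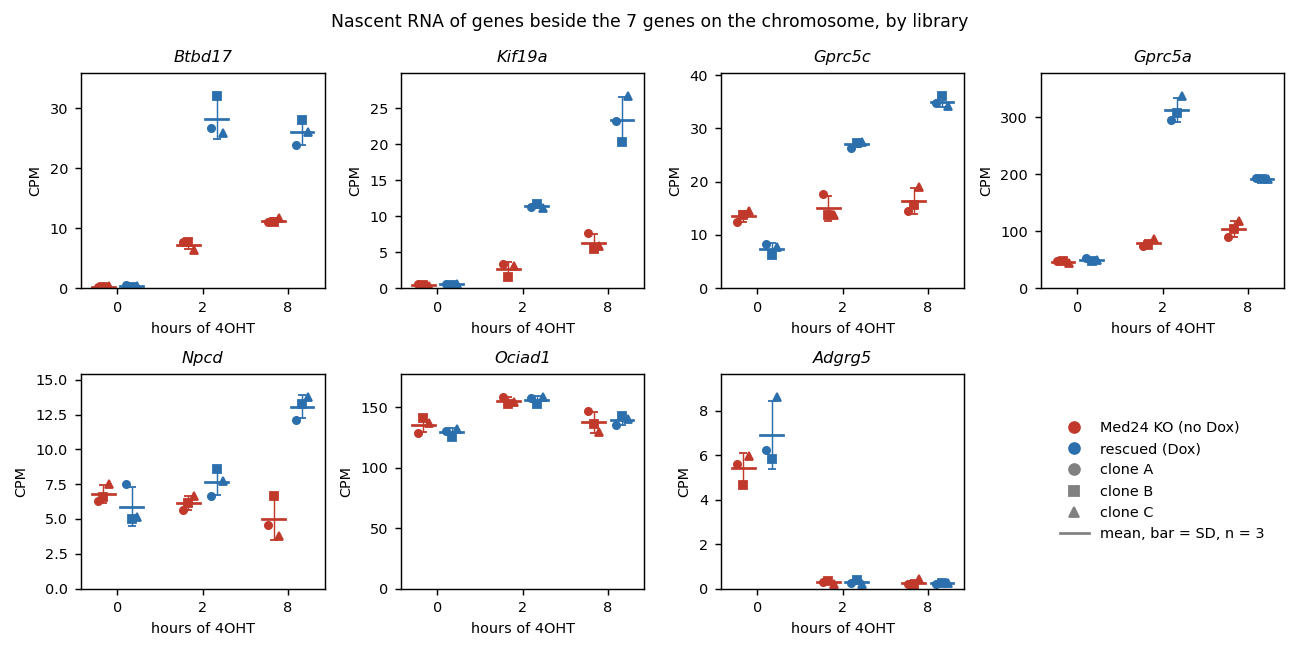
Nascent RNA in CPM (vertical axis, each from 0) of 7 genes that neighbour the set, at 0, 2 and 8 h of 4OHT, with a point for each clone, KO in red left of rescued in blue, and lines and bars for mean and SD (n = 3). Btbd17, Kif19a and Gprc5a have KO points below the rescued ones at 2 h and 8 h, Npcd does so at 8 h alone, and Ociad1 overlaps at each time.

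The genes whose profile over the 18 libraries was most like that of the 7 were sought among 10463 other genes with a mean of at least 5 CPM. Among the 5 genes nearest to the mean standardized profile of the 7 were Map3k14, Sema3e (Pearson r of 0.98 each), Nr4a1 and Ppp1r18 (0.97 each). Map3k14, the kinase NIK of noncanonical NF-kappaB signalling, averaged 12.9 CPM in KO and 36.8 CPM in rescued cells at 2 h and 20.2 CPM in KO and 39.5 CPM in rescued cells at 8 h. Sema3e codes for a secreted guidance protein and Nr4a1 for a nuclear receptor of the immediate early class. Taken singly, Gpr142 was most like Foxp4 and Plaur (0.99 each), Gsg1 like Arap3 (0.99) and Rerg (0.98), and Emp1 like Arid5b (0.98) and Nfatc2 (0.97). Nptxr and Ociad2 shared Slc44a1 (0.98 each) as their nearest gene, followed by Inf2 and Adamts7 (0.97 each). Oaf (Pcolce and Ano6, 0.94 each) and Adgrg1 (Grtp1 and Numbl, 0.95 each) had the least close matches. The 18 libraries share treatment, clones and the same 3 times, so these values describe likeness of course alone.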

How the data were processed

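Nascent RNA was counted in 18 libraries, 3 clones in each of 6 groups. The deposited file held whole-number counts per gene symbol, not normalized, and was used as the authors deposited it. STAR, featureCounts, DESeq and the mm10 build are named in the submitters' processing notes. Versions, and whether strand and introns were counted, are not given in those sources.

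Counts were fitted with edgeR 4.0.16 (R 4.3.3): filterByExpr kept 14128 genes, libraries were scaled by TMM, and one quasi-likelihood model with 6 group means was fitted, with Benjamini-Hochberg adjustment over all genes at 0.05. CPM are TMM-scaled, and correlations used log2 CPM with a prior count of 2. In 1 simulated comparison of KO against rescued cells at 0 h over 13985 genes, the fit called 98% of 100 genes changed by 2 log2 units and 88% of 100 changed by 1, with 8 false among 194 calls. These shares were not split by level. They do not tell how often a change would be called in genes with as few counts as Nptxr, Gpr142 and Gsg1 at 0 h.

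The 7 genes, the gene lists and the tests were chosen with earlier results of these data known. The rule for named genes took Med24, the 7 genes, up to 4 genes of each list with the smallest p at 2 h and at 8 h, overlapping genes, the 2 nearest tested neighbours on each side within 200 kb, and the genes most alike in profile (5 for the set, 2 for each gene). Some genes that the rule names are not reported here. Lists covered adhesion receptors, partners of Adgrg1 (in G12/13 signalling and others), PMP22, EMP and claudin genes, and pentraxins and AMPA receptor subunits. Further lists held close relatives, ERK-induced surface and secreted genes, and markers of 5 cell types.

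By label every group holds the clones A, B and C, so libraries of one clone are paired by origin. Their deviations from the group means had a mean correlation of 0.016 (range -0.10 to 0.083, 45 pairs), and 12 of 18 libraries were nearest to their own clone. No chance level was worked out for the count of 12, so whether libraries of one clone were alike was not tested. No pair of replicates agreed within sampling noise (lowest chi-square per degree of freedom 1.52). P values measure the spread between clones labelled alike. The reads had no molecular identifiers, so limits from counts take in counting error alone. Alternatives were DESeq2 1.42.0, its size factors, total-count scaling, no filter, the clone as a replicate block, scaling without the 13 abundant genes, and leaving out each library or the 3 with a high share of those genes.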

Additional observations from a re-analysis of the deposited data

Results flagged for a closer look

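For part of the related genes and chromosome neighbours the log2 change over 0 h differed between KO and rescued cells by the test of that difference itself (edgeR's quasi-likelihood test, adjusted p under 0.05). Values are the KO change minus the rescued change, and the 7 genes themselves were left out because they were chosen on these libraries. Genes are given where the naming rule took them, and the others with a larger change in KO cells are added, chosen after their values were seen.

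At 2 h the change of Emp3 was 0.94 in KO and 2.86 in rescued cells (difference -1.92), and that of Hbegf 2.65 in KO and 4.28 in rescued cells (-1.63). Of the neighbours, Gprc5a changed by 0.76 in KO and 2.64 in rescued cells (-1.88) and Gprc5c by 0.13 in KO and 1.86 in rescued cells (-1.73). The difference was -1.29 for Perp, -1.25 for Plaur, -1.06 for Adgre5, -0.86 for Cldn4, -0.81 for Itga5 and -0.71 for Adgrb1. Smaller ones were those of Cldn6 (-0.66), Nptx2 (-0.49), Cd9 (-0.36), Cldn12 (-0.35), Epha2 (-0.35) and Arhgef1 (-0.33). The change was larger in KO cells for 4 relatives, which were Nptx1, at 7.27 in KO and 5.43 in rescued cells (1.84), Cldn10 (1.60), Adgrl1 (0.33) and Gnaq (0.32).

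At 8 h the largest of these differences were those of Gprc5c, Npcd and Cldn6. Gprc5c changed by 0.24 in KO and 2.23 in rescued cells (-1.99), and Cldn6 by -0.11 in KO and 1.42 in rescued cells (-1.52). Npcd changed by -0.44 in KO and 1.13 in rescued cells (-1.58), but it overlaps Nptxr and may hold its reads. The difference was -0.98 for Plaur, -0.94 for Adgrd1, -0.84 for Adgrb1, -0.79 for Gprc5a, -0.74 for Hbegf and -0.74 for Apobec3. Smaller ones were those of Dnal4 (-0.54), Cldn4 (-0.54), Cldn12 (-0.45), Adgrl2 (-0.39), Fryl (-0.35), Kifc3 (-0.34) and Arhgef12 (-0.22). The change was larger in KO cells for the relatives Adgra3 (0.45) and Adgrl1 (0.27) and for 4 of the ERK-induced genes, whose differences lay between 0.53 and 1.77. The last value is that of Cd44, one of the 13 abundant genes whose share of counts was high in KO clones B and C at 8 h, and their part in it was not tested.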

How the results depend on the processing

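The 3 lower and 0 higher calls among the 7 genes at 0 h were the same in every alternative run, with the clone as a replicate block included (3 and 0), and over all single-library omissions (3 to 3 and 0 to 0). The paired fit with the replicate block changed no other call or count of these lists by over 1.5 times. For the values and calls of the 7 genes, 1560 of 1575 alternatives left the result the same, and over all 220 results examined 5387 of 5500 did so. Of the 25 alternatives per result 18 left out 1 library, often one outside the groups compared, so many could change little. Total-count scaling moved values of Adgrg1, Emp1, Gpr142 and Gsg1. With it the 8 h difference went from -0.82 to -1.08 for Emp1 and from -1.36 to -1.61 for Gpr142. Results of Oaf, Nptxr and Ociad2 stayed the same in every alternative. The same meant an unchanged call for a tested difference and a shift within the spread for an untested one. For a count it meant a change of no more than 1.5 times. Scaling by total counts alone shifted the median log2 difference of all genes to 0.04 at 0 h, -0.09 at 2 h and -0.26 at 8 h and called 4001 genes lower and 357 higher at 8 h, against 2421 and 2047. Under it the 8 h difference was -0.05 for Gsg1 and -0.050 for Rhoa, in both the other direction. ERK-induced genes higher in KO at 2 h, 3 in the report, were 1 with total-count scaling and 5 with no filter. Related family genes higher in KO at 8 h, also 3, were 0 with total-count scaling, 1 with DESeq2 and 1 without the 3 libraries with a high share of abundant genes. The cause was not tested. Without KO clone A at 0 h the difference between responses of Gsg1 was -1.31 at 2 h and 0.24 at 8 h, against -2.42 and -0.87. At 0 h the 4 to 13 counts per group of Nptxr, Gpr142 and Gsg1 limit what can be seen.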
